A study of Mus musculus with 120 samples.

Results

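The 8 genes Necab1, Necab2, Necab3, Hpcal4, Hpcal1, Ncald, Vsnl1 and Ncs1, which encode neuronal calcium sensors, were chosen by name, and 7 of them were among the 16538 genes of the count table. Hpcal1 is not analysed here. The levels of the 7 genes were read across bulk RNA-seq of projection neurons from 22 nuclei of the mouse thalamus, in 120 libraries that fall into 24 groups by nucleus, tracer and target. The neurons were labelled from their target region, dissected from slices and picked by hand, 14 to 200 cells per library (median 60.5).

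A set of 7 nuclei was labelled from the striatum. In the midline these were the paraventricular (PVT) and intermediodorsal (IMD) nuclei. The rostral intralaminar ones were central lateral (CL), central medial (CM) and paracentral (PCN), and the caudal ones the subparafascicular area (SPA) and the parafascicular nucleus (PF). The tracer was rAAV2retro, a virus taken up by axon endings, that carried GFP in 19 and tdTomato in 9 of the 28 AAV libraries. The other 15 nuclei were labelled from the cortex with DiI, a lipophilic dye. Visual cortex labelled the dorsal lateral geniculate (LGd) and lateral posterior (LP) nuclei, and barrel cortex the ventrobasal (VB) and posterior (PO) nuclei. Motor cortex labelled the ventrolateral (VL), ventromedial (VM) and ventral anterior (VA) nuclei. Retrosplenial cortex labelled the laterodorsal (LD), anteroventral (AV) and anterodorsal (AD) nuclei, and cingulate cortex the interanterodorsal (IAD), reuniens (RE) and anteromedial (AM) nuclei. Orbital cortex labelled the mediodorsal nucleus (MD), and insular cortex the parvicellular ventral posteromedial nucleus (VPMpc). CM had 3 further libraries with DiI from the striatum, and AM had 1 with AAV from the cingulate cortex; wherever the 22 nuclei were compared, CM was taken from AAV and AM from DiI. In the LP and LGd groups the eyes had also received CTB, and in the VA, VM and VL groups a virus in the SNr and DCN marked incoming axons. All animals of the AD, AV, LD, LGd, LP, MD, PO, VB and CM DiI groups were male and all of the PVT, IMD, CL, PF, SPA and AM groups female, and the other groups held both sexes. Animals were pooled in 13 libraries. Recorded ages ran from 55 to 447 in a unit that is not given (median 98, 117 libraries). The genotype was wildtype in 119 libraries, and 1 VA library came from a 33.7-Gad2 animal.

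NECAB proteins are neuronal calcium binders with EF-hand motifs and an antibiotic biosynthesis monooxygenase domain. Necab1 protein binds synaptotagmin 1, Necab2 protein binds the adenosine receptor encoded by Adora2a and the glutamate receptor mGluR5, and Necab3 protein binds the adaptor encoded by Apba2. Hpcal4, Ncald (neurocalcin delta), Vsnl1 (VILIP-1) and Ncs1 (frequenin) belong to another EF-hand family, the visinin-like sensors. These carry a myristoyl chain on the glycine that follows the first methionine, and in most of them calcium exposes this chain and moves the protein to membranes. In the thalamus, calcium entry through T-type and other channels shapes burst and tonic firing of relay cells, and EF-hand proteins are widely used to tell thalamic nuclei apart.

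The start of the coding sequence separates the 2 families. It is shown for the 7 genes from the GENCODE vM21 annotation of GRCm38 (mm10), with the second codon in capitals and each stretch written 5′ to 3′. The genes lie at chr4:14952245-15149794 on the minus strand (Necab1), chr8:119446719-119472640 plus (Necab2), chr2:154544399-154558890 minus (Necab3), chr4:123183227-123194701 plus (Hpcal4), chr15:37366175-37792570 minus (Ncald), chr12:11325242-11436613 minus (Vsnl1) and chr2:31245823-31295989 plus (Ncs1). The stretches of 45 bases each lie in a single coding exon, at chr4:15148872-15148916, chr8:119447055-119447099, chr2:154558795-154558839, chr4:123188722-123188766, chr15:37397390-37397434, chr12:11386932-11386976 and chr2:31246179-31246223, in the same order and on the same strands.
Necab1: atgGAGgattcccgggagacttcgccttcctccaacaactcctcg
Necab2: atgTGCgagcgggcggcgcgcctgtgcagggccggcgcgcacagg
Necab3: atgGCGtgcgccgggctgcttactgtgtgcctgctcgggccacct
Hpcal4: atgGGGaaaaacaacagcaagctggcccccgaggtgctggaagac
Ncald: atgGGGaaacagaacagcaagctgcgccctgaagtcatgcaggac
Vsnl1: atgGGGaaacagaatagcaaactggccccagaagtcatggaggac
Ncs1: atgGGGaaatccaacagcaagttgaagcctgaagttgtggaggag
All 4 visinin-like genes carried the glycine codon GGG in second place, and the 3 NECAB genes carried GAG, TGC and GCG there. The visinin-like genes encode 190 to 193 amino acids, and Necab1, Necab2 and Necab3 encode 352, 389 and 353. Coding sequences of the 4 visinin-like genes were 65.6 to 82.1% identical to each other, counted over aligned bases without gaps. The closest pair, Hpcal4 and Vsnl1, shared at most 27 bases in a row. By the same count, pairs of a NECAB and a visinin-like gene were 68.6 to 71.5% identical, above the 61.7 to 65.7% of pairs of NECAB genes. In those mixed pairs the shorter sequence was spread with gaps along the longer one, and gaps were not counted. Their longest shared runs were only 10 to 15 bases. The percentages of mixed pairs therefore do not measure how alike the families are. Exons of Necab1 and Ncald overlap antisense transcripts (410 and 347 bases) and those of Necab3 overlap 71 bases of 1700003F12Rik. Ncald exons also share 286 bases with the processed transcript Gm49397 on the same strand. The library kit does not mark strand, so reads in these stretches cannot be told apart.

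Library totals ran from 8159497 to 26444831 counts (median 15571299.5), and levels are CPM, counts per 1000000 of the TMM-scaled library total. No group held the same animal more than once, although 44 of the 85 animals gave libraries to several groups. The thalamic projection neuron markers Slc17a6, Tcf7l2 and Rora had reads in all 120 libraries. The summed level of the 6 oligodendrocyte markers ran from 0.257 to 3777 CPM and passed 500 CPM in 5 libraries, 2 of VA, 2 of VB and 1 of LP; in the 30 striatum libraries it was 10.97 to 60.0 CPM. Of the microglia and habenula lists only Csf1r (0 to 47.9 CPM) and Gpr151 (0 to 60.2 CPM) were in the table, and markers of astrocytes, oligodendrocyte precursors, endothelial cells and GABAergic neurons are not analysed here. In pools of cells, fewer cells of a type and less RNA per cell cannot be told apart.

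All 7 genes differed among the 22 nuclei in edgeR's quasi-likelihood test with Benjamini-Hochberg adjustment over all genes, as did 55.1% of the 16527 genes tested. The smallest adjusted p was that of Hpcal4 (6.1e-22), followed by Necab1 (1.3e-21), Vsnl1 (3.1e-20) and Necab3 (3.8e-19). Ncald (5.5e-13) and Necab2 (9.8e-13) came next, and Ncs1 had the largest (0.00016). The mean of the highest nucleus was 430 times that of the lowest for Necab1, 98.8 times for Hpcal4, 49.2 times for Necab2 and 23.6 times for Necab3. That ratio was only 5.38 for Ncald, 3.73 for Vsnl1 and 3.17 for Ncs1. The 3 NECAB genes and Hpcal4 thus had wider ratios between nuclei than the other 3 sensors.

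Necab1, whose protein is a partner of synaptotagmin 1, was highest in MD at 2368 ± 861 CPM (SD, n = 6). The 6 MD libraries ran from 992 over a median of 2714 to 3092 CPM. The 7 striatum-labelled nuclei followed directly, from PCN at 2091 ± 129 (n = 4) down to PF at 1719 ± 126 CPM (n = 4). They sat close together, and the spread within MD covered all of them. A middle range held LP (1556 ± 526.3, n = 9), VA (1328 ± 304, n = 8), VPMpc (1089 ± 348, n = 6) and RE (1083 ± 183 CPM, n = 8). VM, PO, IAD, AM and LD lay between 711 and 369 CPM. The lowest nuclei were LGd (115 ± 68.4, n = 5), VL (100.5 ± 54.4, n = 6), VB (30.6 ± 60.7, n = 4), AD (9.80 ± 16.9, n = 4) and AV (5.51 ± 7.52 CPM, n = 8). One AV library had no Necab1 read, where 3 counts would be at most 0.372 CPM. Down the order of nuclei, the library ranges of neighbours overlapped at all 21 steps, so the order is one of broad tiers.

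Necab2, the partner of the Adora2a and mGluR5 receptors, was highest in 2 midline nuclei. The 4 IMD libraries had 94.0, 161, 182 and 138 CPM (mean 144 ± 37.8), and the 3 PVT libraries had 139, 156 and 106 CPM (mean 134 ± 25.6). VA followed with a mean of 109 ± 68.0 CPM (n = 8), and SPA with 81.4 ± 15.5 CPM (n = 4). Every other nucleus but AV and AD had a mean between 12.2 CPM (RE) and 74.0 CPM (VM). The anterior nuclei were lowest, AV at 6.65 ± 5.73 (n = 8) and AD at 2.93 ± 3.93 CPM (n = 4). The only neighbours in the order whose libraries did not overlap were IAD (22.5, 26.6 and 23.7 CPM) above RE (6.84 to 20.1 CPM).

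Necab3, which binds the Apba2 adaptor, followed another order. It was highest in LD, where the 5 libraries had 383, 594, 213, 319.6 and 412 CPM (mean 384 ± 140.0). AD (177 ± 48.0, n = 4), PO (169.5 ± 39.4, n = 7), VL (155 ± 77.4, n = 6), VPMpc (145 ± 88.3, n = 6) and VB (134 ± 82.5 CPM, n = 4) came next. LD stood above AD by more than the SD of either, but the lowest LD library lay below the highest of AD. The low end held the striatum-labelled nuclei, with means of 16.7 to 33.0 CPM, together with RE (34.7), AV (30.1), IAD (22.4) and AM (16.3 CPM). AD and AV were the lowest nuclei for Necab1, and here AD was second and AV fourteenth.

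**Figure D1:**
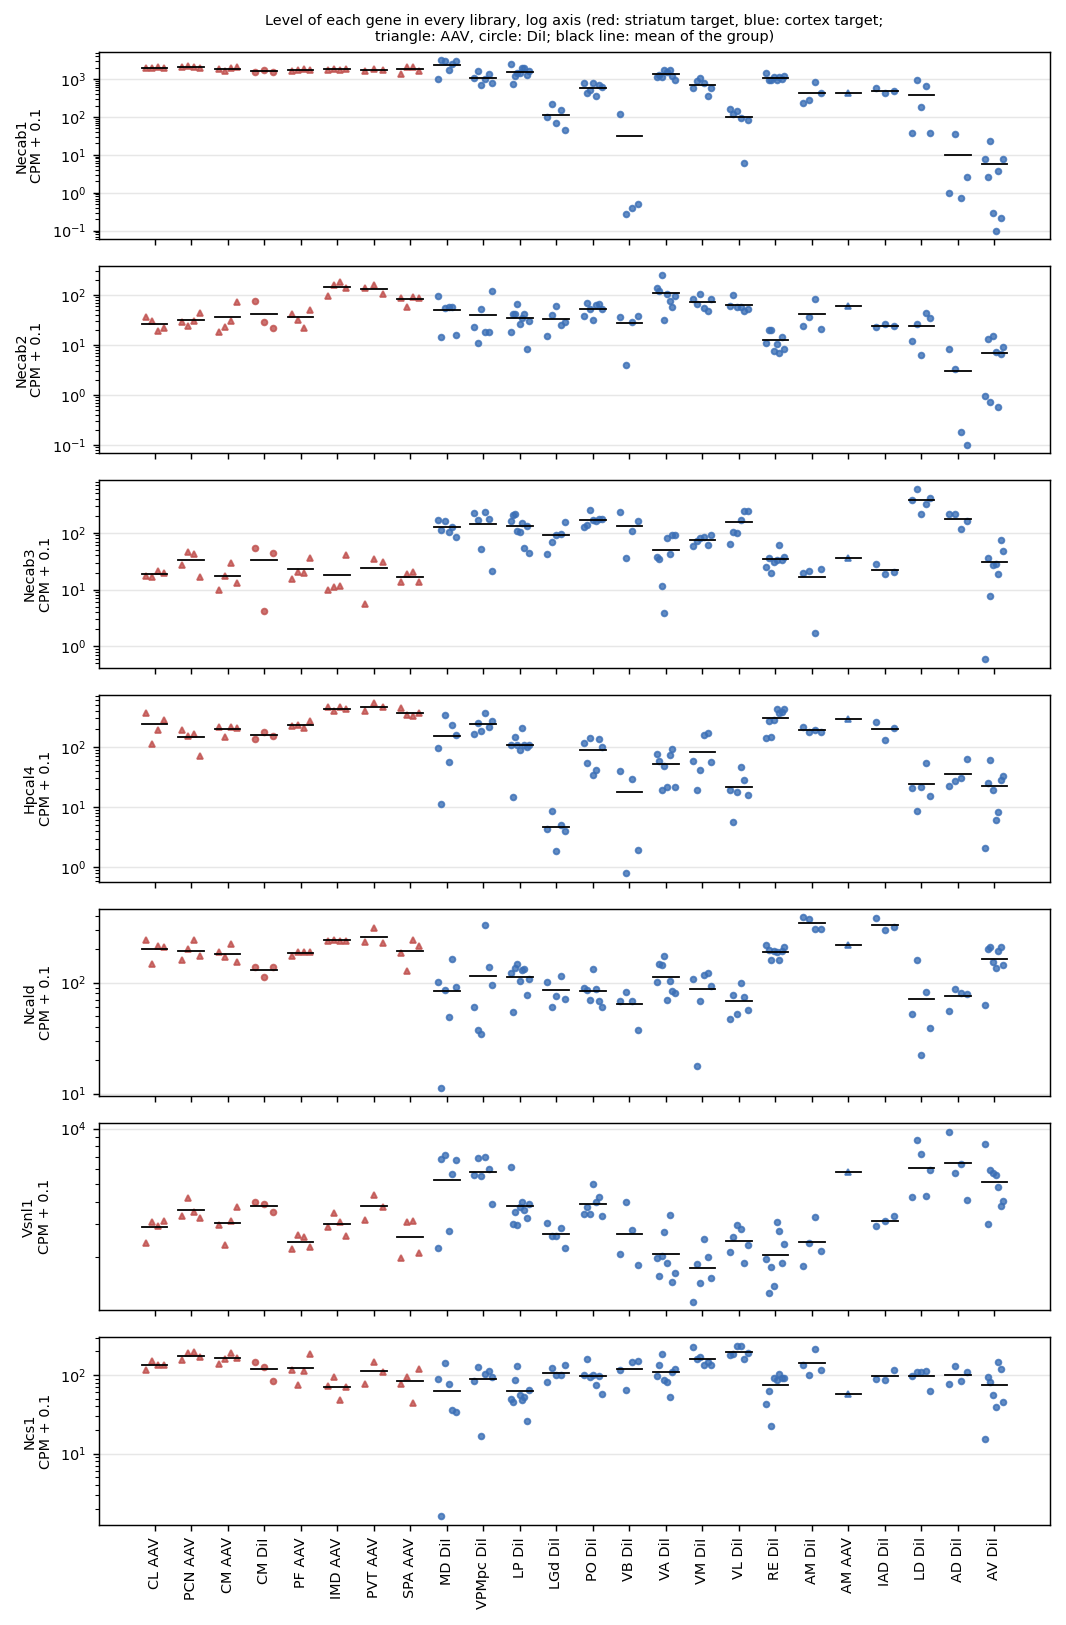
Levels of the 7 genes in CPM (log axis) in each of the 24 groups, with CM DiI and AM AAV shown apart. Each point is a library and the bar marks the mean of the group. Over the means of the 22 nuclei Necab1 ran from 2368 CPM in MD to 5.51 CPM in AV, while Ncs1 kept between 62.2 and 197 CPM.

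Levels can be compared between genes only per length of exonic sequence. On that scale Vsnl1 was the highest of the 7 genes in all 22 nuclei, with a median of 1547 CPM per kb. Necab1 had a median of 207 CPM per kb over the nuclei, and the other 5 genes had medians of 16.2 (Ncald) to 27.4 (Hpcal4) CPM per kb. Vsnl1 made up 91.7 to 98.9% of the summed visinin-like level per length. Among the NECAB genes Necab1 was highest per length in 16 nuclei, and Necab3 was highest in the other 6, which were AD, AV, LD, LGd, VB and VL. Necab2 was highest in none of the 22 nuclei.

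The share of Necab1 in the summed Necab1 and Necab3 level per length put both genes on 1 scale for each library. Groups labelled from the striatum had shares between 93.4 and 99.5% in every library. LD had 4.31 to 49.2%, AD 0.203 to 7.26% and VB 0.119 to 20.5%. In all libraries of LD, AD and VB, Necab3 therefore exceeded Necab1 per length. VL (1.17 to 54.3%) and LGd (12.4 to 60.0%) had libraries on both sides, and in AV, where both genes were low, the share ran from 0 to 88.1%. PO, the partner of VB in the barrel-cortex groups, had 49.7 to 75.1%.

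**Figure D2:**
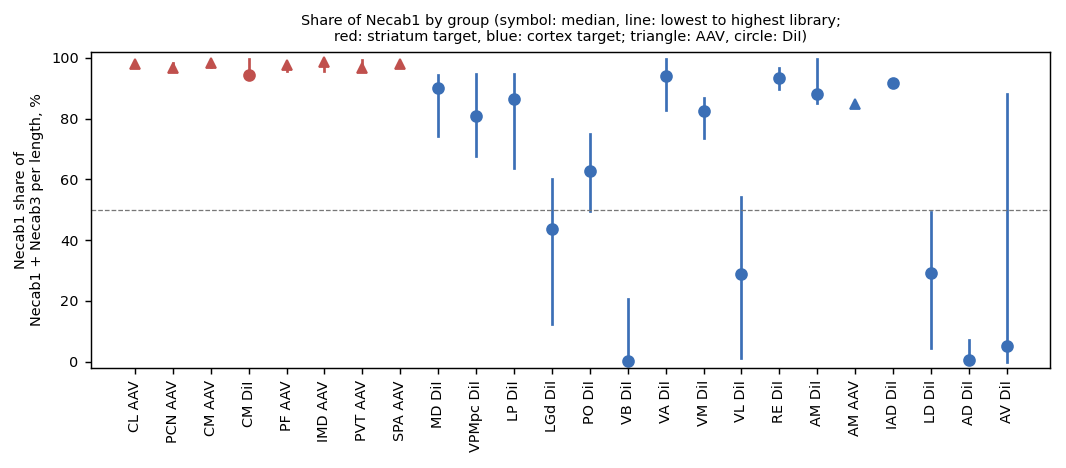
Share of Necab1 in the summed Necab1 and Necab3 level per kb of exon, in percent, by group. Symbols are group medians and lines run from the lowest to the highest library. The striatum-labelled groups lie above 93.4%, and all libraries of AD, LD and VB lie below 50%.

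Hpcal4, a visinin-like sensor close to Vsnl1, was highest in PVT, where the 3 libraries had 391, 531 and 453 CPM (mean 459 ± 70.4). IMD (433 ± 33.4, n = 4), SPA (367 ± 55.3, n = 4) and RE (302 ± 115 CPM, n = 8) came next. The lowest means were those of VL at 21.8 ± 13.6 (n = 6), VB at 17.9 ± 19.8 (n = 4) and LGd at 4.64 ± 2.44 CPM (n = 5). AV and LD, labelled from retrosplenial cortex, lay just above VL, at 4.25 and 4.47 beside 4.09 CPM per kb. The LGd libraries had 4.26, 8.48, 1.78, 4.85 and 3.83 CPM. All 5 lay below every library of the 12 nuclei from PVT to PCN at the top of the order, whose lowest value was 11.1 CPM in MD.

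Ncald encodes neurocalcin delta, a sensor that binds clathrin. It was highest in AM, where the 4 libraries had 388, 374, 306 and 304 CPM (mean 343 ± 44.4), and in IAD with 384, 298 and 315 CPM (mean 332 ± 45.5). PVT (257 ± 46.2, n = 3) and IMD (240.1 ± 2.89 CPM, n = 4) followed. The ranges of AM and IAD overlapped, and both lay above all RE libraries (160.0 to 217 CPM), although RE was labelled from the same cortex. The lowest means were those of LD (71.4 ± 54.9, n = 5), VL (67.7 ± 19.4, n = 6) and VB (63.8 ± 18.7 CPM, n = 4).

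Vsnl1 encodes VILIP-1, which raises the surface level of nicotinic receptors with the α4 subunit. It was highest in AD (9625, 5728, 6443 and 4059 CPM, mean 6464 ± 2332) and LD (4250, 8651, 7280, 4287 and 5953 CPM, mean 6084 ± 1913). VPMpc (5821 ± 1149, n = 6), MD (5228 ± 2182, n = 6) and AV (5137 ± 1615 CPM, n = 8) were next. No step between these 5 nuclei exceeded the SDs. VM was lowest at 1731 ± 474 CPM (n = 6), and no library of the study had less than 1133 CPM.

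Ncs1, a regulator of the phosphatidylinositol kinase Pi4kb and of the dopamine receptor Drd2, had the narrowest range. VL was highest at 197 ± 29.5 CPM (n = 6), followed by PCN (176 ± 18.2, n = 4), CM (164 ± 22.0, n = 4) and VM (162 ± 35.5 CPM, n = 6). MD (63.1 ± 49.8, n = 6) and LP (62.2 ± 30.5 CPM, n = 9) were lowest. No neighbouring means in its order were further apart than the larger of their SDs.

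The comparisons that follow set nuclei labelled with DiI from the same cortical area against each other, so that tracer and target were held fixed. Over the 11 such pairs, 15 of the 77 member tests passed (19.5%), against 2.85% of the tests over all genes. The members were chosen with earlier results of these data known, so these shares describe the chosen genes and do not test the family. Necab1 passed in 6 pairs, Hpcal4 and Necab3 in 3 each, Necab2 in 2 and Ncald in 1. Vsnl1 and Ncs1 passed in none of them. These pairs share groups with each other within the motor, retrosplenial and cingulate sets, so the counts are not independent.

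Between the visual nuclei, Necab1 and Hpcal4 were both far higher in LP than in LGd. LP receives much of its drive from cortex and LGd from the retina. The 9 LP libraries had 730.3 to 2550.4 CPM of Necab1 (median 1404), and the 5 LGd libraries had 98.0, 215, 68.5, 150.2 and 44.96 CPM. Every LP library exceeded every LGd library, and the ratio of means was 13.5 (log2 difference 3.75 ± 0.73 SE, edgeR adjusted p = 0.0002). Hpcal4 in LP ran from 14.5 over a median of 106 to 202 CPM, against the 1.78 to 8.48 CPM of LGd given above. These ranges did not overlap either, and the ratio of means was 23.5 (log2 4.55 ± 0.62, adjusted p = 2.8e-08). The other 5 genes did not pass, and 3.62% of all genes did. Summed oligodendrocyte markers were 6.12 to 858 CPM in LP and 9.70 to 151 CPM in LGd, and both calls held without the LP library above 500 CPM. Vsnl1 was 3797 ± 968 in LP and 2668 ± 317 CPM in LGd, and passed only in a fit of the 2 groups alone (log2 0.50, adjusted p = 0.040).

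The EF-hand lists of the same comparison held genes in both directions. Of 11 other EF-hand genes tested 4 passed, with Calb1 (173 ± 40.1 against 39.7 ± 5.15 CPM) and Calb2 (115 ± 65.8 against 5.65 ± 8.75 CPM), the buffers calbindin and calretinin, higher in LP. Pvalb, which encodes the buffer parvalbumin, was lower in LP (0.0901 ± 0.204 against 26.1 ± 8.88 CPM). Caln1 was 4.55 ± 7.40 CPM in LP with no read in LGd, where 3 counts over the group would be 0.0486 CPM; its LP libraries spread widely and the ranges overlapped. Among 5 other neuronal calcium sensors only Kcnip1 passed, at 3.17 ± 8.48 CPM in LP and no read in LGd, with an SD above its mean. Of 11 reported partners only Grm5 passed, the mGluR5 gene, at 400 ± 111 in LP and 147 ± 13.0 CPM in LGd. The median log2 differences were 0.51 for the 7 members, 0.00074 for the other sensors, 0.07 for the EF-hand list and 0.14 for the partners, beside 0.10 for all genes.

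The barrel-cortex nuclei showed the same 2 genes in the same direction. The 7 PO libraries had 356 to 783 CPM of Necab1 (median 601), and the 4 VB libraries had 122, 0.173, 0.305 and 0.400 CPM. One VB library thus held nearly all of the Necab1 signal of that group, and it came from an animal that also gave a PO library. All PO libraries were above all VB libraries, and the ratio of means was 19.3 (log2 4.27 ± 0.85, edgeR adjusted p = 0.00036). Without this VB library the log2 difference was 10.9. Hpcal4 had 34.3 to 138 CPM in PO (median 97.8) and 40.0, 0.692, 29.2 and 1.80 CPM in VB. These ranges overlapped, and the ratio of means was 4.89 (log2 2.29 ± 0.61, adjusted p = 0.016). No other member passed, and 2.65% of all genes did.

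The oligodendrocyte markers differed between these groups, at 73.0 to 1747 CPM in VB and 3.10 to 211 CPM in PO. All 6 of these markers had reads in the study, and their part in the result was not tested beyond leaving out libraries. Without the 2 VB libraries above 500 CPM neither gene passed (Necab1 log2 3.28, edgeR adjusted p = 0.082, and Hpcal4 log2 2.11, 0.22). That fit kept only VB libraries 1 and 2, and library 1 was the one with nearly all of the group's Necab1 signal (122 CPM). The loss of these calls thus cannot be assigned to the oligodendrocyte markers. In a fit of PO and VB alone Necab1 had an adjusted p of 0.059 and Hpcal4 of 0.15. Leaving out VB library 2 or 4 also ended the Hpcal4 call (log2 1.89, adjusted p = 0.11, and 1.91, 0.12), as did limma voom with animal as block (3.70, 0.057). Of the fixed lists, Calb1 (218 ± 28.9 against 40.9 ± 50.7 CPM), Calb2 (56.8 ± 36.5 against 0.114 ± 0.0926 CPM) and Grm5 (346 ± 91.5 against 126 ± 46.5 CPM) were higher in PO. Caln1 (6.89 ± 17.3 CPM) and Kcnip2 (3.83 ± 5.47 CPM) also passed in that direction, with SDs above their means and no read in VB, where 3 counts over the group would be 0.0612 CPM. Pvalb was lower in PO (0.114 ± 0.0865 against 53.7 ± 17.9 CPM). In all 4 of 11 EF-hand genes, 1 of 5 sensors and 1 of 11 partners passed, with medians of 0.06, 1.28 and 0.37, beside 0.54 for the members and 0.07 for all genes.

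In the motor thalamus Necab1 was low in VL and high in both VM and VA. The 6 VL libraries had 6.01 to 158 CPM (median 108), the 6 VM libraries 349.8 to 1092 CPM (median 684) and the 8 VA libraries 933 to 1749 CPM (median 1227). VL overlapped with neither of the other nuclei. The ratio of means was 7.08 for VM over VL (log2 2.82 ± 0.67, edgeR adjusted p = 0.0068) and 13.2 for VA over VL (3.73 ± 0.68, adjusted p = 9.2e-05). All genes passed at 1.69% in VM against VL and at 2.21% in VA against VL.

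A second gene passed in each of these comparisons. Hpcal4 had 18.9 to 171 CPM in VM (median 56.2) and 5.53 to 45.4 CPM in VL (median 18.3). The ranges overlapped, and the ratio of means was 3.80 (log2 1.93 ± 0.52, edgeR adjusted p = 0.026), which did not pass with sex as a term (adjusted p = 0.055) or in limma voom (0.15). Necab3 went the other way in VA, at 3.78 to 93.0 CPM (median 39.9) against 64.6 to 247 CPM in VL (median 138). These ranges overlapped too, and Necab3 fell by 1.65 ± 0.46 on the log2 scale (adjusted p = 0.033). Summed oligodendrocyte markers were 11.5 to 3777 CPM in VA and 3.99 to 218 CPM in VL. The Necab3 difference did not pass with amplification date (0.077) or sex (0.13) as a term. It also missed the threshold in a fit of the 2 groups alone (0.11), without the libraries high in oligodendrocyte markers (0.064), or without the older animals and the 33.7-Gad2 library (0.056). Ncs1 was 108 ± 40.2 CPM in VA and 197 ± 29.5 CPM in VL, and passed only in limma voom (log2 -0.92, adjusted p = 0.014).

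Between VA and VM no member passed, nor did any in DESeq2 or limma voom, and none had an unadjusted p under 0.05 in edgeR's test; 0.127% of all genes passed. Calb1 was higher in both nuclei than in VL (VM 417 ± 117, VA 542 ± 211 and VL 127 ± 68.7 CPM). Pvalb was lower in both (VM 3.33 ± 3.31, VA 5.38 ± 5.04 and VL 76.4 ± 32.4 CPM). Calb2 (2.08 ± 3.45 against 0.0590 ± 0.0649 CPM) and Grm5 (335 ± 119 against 166 ± 47.7 CPM) were higher in VM. Thus 3 of 11 EF-hand genes passed in VM against VL and 2 of 11 in VA against VL, with 1 and 0 of 11 partners and 0 of 5 other sensors. Of the sensors 1 had an unadjusted p under 0.05 in each comparison, and 2 partners did in VA against VL. The median log2 difference of the members was 0.24 in VM against VL, 0.74 in VA against VL and 0.26 in VA against VM, beside 0.00060, 0.09 and 0.04 for all genes.

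The retrosplenial nuclei differed in all 3 NECAB genes. AD, AV and LD carry head-direction and spatial signals between the mammillary bodies, hippocampal formation and retrosplenial cortex. Necab1 was found in LD, at 36.8, 952, 181, 635 and 38.1 CPM, and was near absent from AD, at 0.888, 35.1, 0.630 and 2.57 CPM, and from AV, at 0 to 22.5 CPM (median 3.10). LD libraries spread widely, but the lowest lay above the highest of AD and of AV. The ratio of means of LD to AV was 66.9 (log2 6.07 ± 0.70, edgeR adjusted p = 3.4e-11). From LD to AD Necab1 fell by 5.22 ± 0.91 on the log2 scale (adjusted p = 8.3e-06), and without the AD library at 35.1 CPM it fell by 8.05. The difference between AD and LD did not pass in limma voom (adjusted p = 0.14).

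Necab3 was high in both LD and AD and low in AV. The 4 AD libraries had 212, 218, 116 and 162 CPM, and the 8 AV libraries had 0.496 to 75.2 CPM (median 27.7). Every AD library and every LD library (213 to 594 CPM) was above every AV library. The ratio of means was 5.89 for AD over AV (log2 2.56 ± 0.51, edgeR adjusted p = 0.00014) and 12.8 for LD over AV (3.67 ± 0.50, adjusted p = 1.5e-08). AD and LD overlapped narrowly, and their difference did not pass (adjusted p = 0.26). AD and AV thus shared near absence of Necab1 and differed in Necab3, while LD held both transcripts.

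Necab2 had 12.0, 26.8, 6.16, 42.7 and 33.9 CPM in LD, 8.37, 3.26, 0.0787 and 0 CPM in AD, and 0.485 to 15.2 CPM in AV (median 6.84). LD was highest, but its lowest library lay within both other groups. Necab2 passed for LD over AV (ratio 3.66, log2 1.87 ± 0.54, edgeR adjusted p = 0.023). From LD to AD it fell by 3.08 ± 0.73 on the log2 scale (adjusted p = 0.0019), and without the AD library at 8.37 CPM it fell by 4.45. Without that library it also fell from AV to AD (by 2.58, adjusted p = 0.029), where it otherwise did not pass. Ncald had 52.1, 161, 22.2, 82.7 and 38.9 CPM in LD and 63.1 to 208 CPM in AV (median 172). Most LD libraries lay below the AV range, and Ncald fell by 1.19 ± 0.34 from AV to LD (adjusted p = 0.022).

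The counts of members were 1 of 7 in AD against AV (5.69% of all genes passed), 4 of 7 in LD against AV (5.5%) and 2 of 7 in AD against LD (6.73%). In these groups 2 libraries of LD and 3 of AV came from animals of recorded age above 300. Without them Necab2 (log2 1.00, edgeR adjusted p = 0.36) and Ncald (-0.95, 0.16) did not pass in LD against AV. Both also missed the threshold with amplification date as a term (adjusted p = 0.14 and 0.26) and in a fit of the 2 groups alone (0.41 and 0.16). Necab2 missed it in limma voom with animal as block too (log2 2.37, 0.088). Necab2 in AD against LD did not pass in a fit of these groups alone (0.37). For LD against AV, leaving out LD library 4 or 5 ended the call of Necab2 (log2 1.56, adjusted p = 0.083, and 1.72, 0.057). Leaving out LD library 1, 3 or 5 ended that of Ncald (-1.10, 0.076; -0.96, 0.11; -1.04, 0.082). Ncald passed in AD against AV in DESeq2 only (log2 -1.10, adjusted p = 0.018), at 75.9 ± 14.2 and 163 ± 49.7 CPM. The members' median log2 difference was 0.43 in AD against AV, 0.39 in LD against AV and 0.03 in AD against LD, beside -0.08, -0.03 and 0.0 for all genes.

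Other calcium genes differed between the same nuclei. The potassium channel partner Kcnip3 was nearly absent from AD (0.1001 ± 0.149 CPM, n = 4) and present in AV (33.0 ± 17.7, n = 8) and LD (97.7 ± 76.7 CPM, n = 5). Calb1 was also lowest in AD (1.37 ± 2.63), above it in AV (8.12 ± 8.41) and highest in LD (35.4 ± 29.5 CPM), with all 3 differences passing. Calb2 was higher in LD (44.7 ± 14.7) than in AV (4.94 ± 7.05) and AD (3.65 ± 5.87 CPM). Hpca, which encodes hippocalcin, was 2.26 ± 2.88 CPM in LD with no read in AV or AD, where 3 counts over the group would be 0.0291 and 0.0677 CPM; the SD exceeded the mean and the ranges overlapped. Syt1, the synaptotagmin that binds Necab1 protein, was higher in AD (4243 ± 117) than in AV (2545 ± 450) and LD (2585 ± 749 CPM). Grm5 was lower in AD (160 ± 23.3) than in AV (333 ± 77.2 CPM). Il1rapl1, whose protein binds Ncs1 protein, was lower in AD (50.8 ± 21.8) than in AV (109 ± 38.3) and LD (190 ± 53.3 CPM). Efhd2, another EF-hand gene, was higher in AD (286 ± 61.9) than in AV (108 ± 79.8) and LD (95.4 ± 41.5 CPM). Chrna4, the nicotinic α4 subunit gene, was higher in LD (845 ± 165) than in AV (431 ± 144 CPM). In AD against AV 1 of 5 other sensors passed (lower), 3 of 11 EF-hand genes (1 higher) and 4 of 11 partners (1 higher). In LD against AV 1 of 5, 2 of 11 and 1 of 11 passed, all higher. In AD against LD 2 of 5 passed, both lower, with 3 of 11 EF-hand genes (1 higher) and 2 of 11 partners (1 higher).

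Of the cingulate nuclei, AM and RE had library ranges that did not overlap in Necab1, Necab2 and Ncald, yet none of the 7 genes passed. The share of all genes with such ranges was not counted. Necab1 had 233, 278, 815 and 417 CPM in AM and 925 to 1458 CPM in RE (median 1051). Necab2 had 24.4, 36.6, 82.4 and 21.0 CPM in AM and 6.84 to 20.1 CPM in RE (median 10.6). Ncald had the AM and RE values given above. By its mean RE was higher in Necab1 and lower in Necab2 and Ncald, with ratios of means of AM to RE of 0.402, 3.36 and 1.81. In edgeR's test 0 of 7 passed, with 3 at an unadjusted p under 0.05, while DESeq2 called 0 and limma voom 2; 1.84% of all genes passed.

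A fit of AM and RE alone, with its own estimate of spread, called all 3 genes. The edgeR adjusted p was 0.0037 for Necab1 (log2 -1.31), 0.023 for Necab2 (1.75) and 0.00083 for Ncald (0.86). The 4 AM libraries and the first 4 of RE came from the same animals. The library ranges of AM and IAD overlapped for all 7 genes, with 0 members called in edgeR, DESeq2 or voom, 0 at an unadjusted p under 0.05, and 0.0% of all genes passing. RE against IAD had 0 members called, 2 at an unadjusted p under 0.05, 0 in DESeq2 and 1 in voom (Ncald), beside 1.33% of all genes. A fit of RE and IAD alone called Ncald (log2 -0.81, edgeR adjusted p = 0.0029) and Necab1 (1.12, 0.00027). Amplification date and nucleus cannot be told apart in the comparisons with IAD. Among partners of Ncs1, Il1rapl1 (111 ± 36.2 against 50.3 ± 11.2 CPM) and the potassium channel gene Kcnd2 (336 ± 110.2 against 121 ± 21.9 CPM) were higher in AM than in RE. Kcnip3, whose protein binds Kv4 channels, was higher in AM (52.8 ± 37.3) and IAD (77.0 ± 20.4) than in RE (14.1 ± 7.98 CPM). Efhd2 was higher in AM (294 ± 58.6) than in RE (92.8 ± 49.0 CPM). In AM against RE 1 of 5 other sensors, 1 of 11 EF-hand genes and 3 of 11 partners passed, all higher. In RE against IAD 1 of 5, 0 of 11 and 2 of 11 passed, all lower, with 4 EF-hand genes at an unadjusted p under 0.05, and in AM against IAD none of the lists had a call. The members' median log2 difference was 0.23 in AM against RE, -0.05 in AM against IAD and -0.39 in RE against IAD, beside -0.05, 0.03 and 0.11 for all genes.

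**Figure D3:**
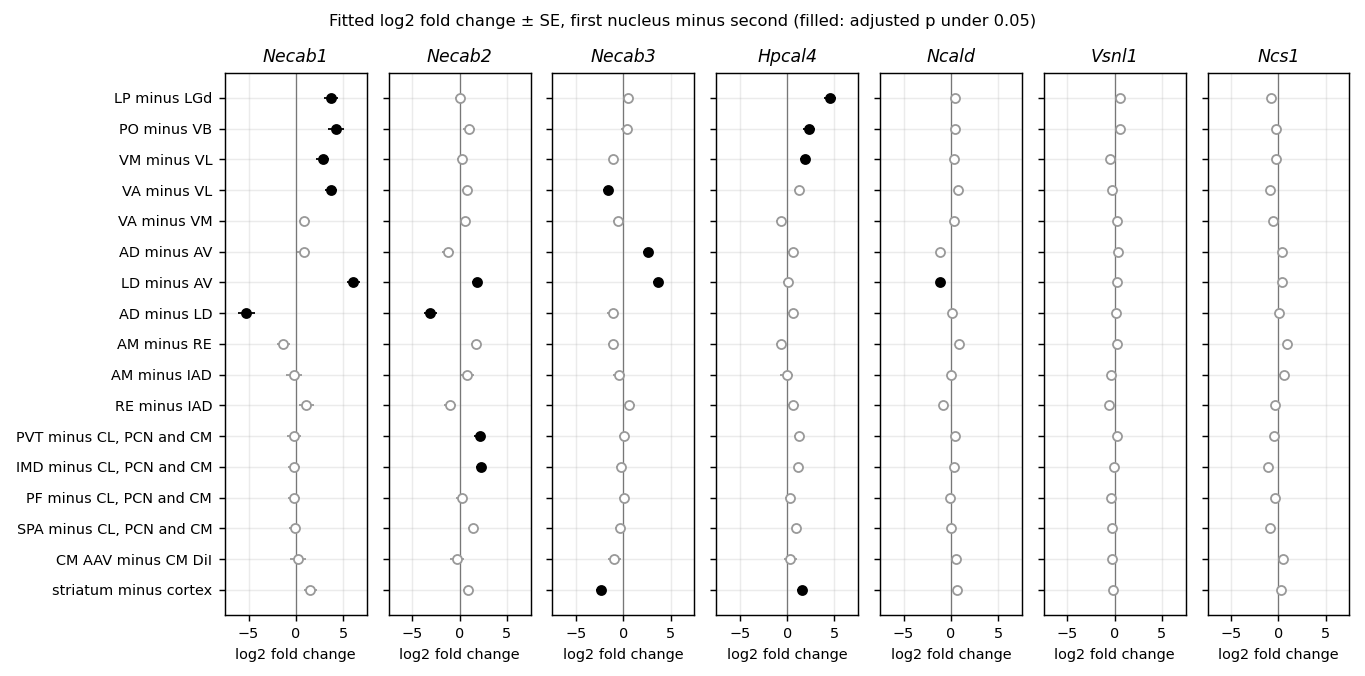
Log2 differences of the 7 genes in the comparisons between nuclei, as estimates from edgeR with an SE derived from the F of its test. Filled points have an adjusted p under 0.05 over all genes. Necab1 reached 6.07 in LD against AV and Hpcal4 4.55 in LP against LGd, while no Vsnl1 or Ncs1 point is filled.

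Within the nuclei labelled by AAV from the striatum, PVT, IMD, PF and SPA were each set against the mean of CL, PCN and CM, the rostral intralaminar nuclei. Necab2 was higher in both midline nuclei. Beside the 94.0 to 182 CPM of IMD and the 106 to 156 CPM of PVT, it had 35.7, 30.6, 19.2 and 21.3 CPM in CL. PCN had 28.5, 24.2, 30.3 and 42.5 CPM, and CM had 17.8, 22.6, 29.7 and 72.4 CPM. All 7 midline libraries were above all 12 intralaminar libraries. The log2 difference was 2.21 ± 0.50 for IMD (edgeR adjusted p = 0.0040) and 2.11 ± 0.55 for PVT (adjusted p = 0.017), with 2.75% and 2.18% of all genes passing. The habenula marker Gpr151 was 13.7 to 31.4 CPM in PVT and 10.6 to 60.2 CPM in IMD, beside 3.58 to 14.2 in CL, 0 to 10.7 in PCN and 8.04 to 23.2 CPM in CM, and its part in the result was not tested. The PVT call rested on its 3 libraries and was lost without the first (log2 2.08, adjusted p = 0.076) or the second (1.98, adjusted p = 0.12).

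No member passed for SPA, although Necab2 had 88.2, 58.6, 92.9 and 85.8 CPM there (log2 1.39 ± 0.52, edgeR adjusted p = 0.13). SPA had 3 members at an unadjusted p under 0.05, 0 called by DESeq2 and 3 by limma voom, and 3.44% of all genes passed. The log2 difference of Hpcal4 from the intralaminar mean was 1.28 ± 0.52 in PVT (adjusted p = 0.21), 1.20 ± 0.47 in IMD (0.19) and 0.96 ± 0.48 in SPA (0.33). Separate fits of each of these nuclei with CL, PCN and CM alone called all 3 (edgeR adjusted p 0.0024, 0.00062 and 0.0059). These fits also called Ncs1, lower in IMD (log2 -1.15) and SPA (-0.90), and Necab2, higher in SPA (1.38, adjusted p = 0.0024). DESeq2 called Ncs1 in IMD as well (-1.09, 0.048). IMD and CL libraries of the same number shared an animal in 3 of 4 pairs. Limma voom with animal as block called Hpcal4 in PVT (log2 1.31, adjusted p = 2.8e-05), IMD (1.24, 7.5e-06) and SPA (0.99, 0.0039), and Ncs1 in IMD (-1.16, 0.0041) and SPA (-0.94, 0.049). Amplification date and nucleus cannot be told apart in PVT, IMD and SPA against the intralaminar nuclei, since no fit with date as a term could be had. For PF against the intralaminar nuclei no member passed in edgeR, DESeq2 or voom, with 0 at an unadjusted p under 0.05 and 0.0605% of all genes passing.

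A set of 3 of the 11 reported partners was lower in PVT, IMD and SPA than in the intralaminar nuclei. Chrna4, the nicotinic α4 subunit, fell by 1.47 ± 0.29, 1.62 ± 0.26 and 2.34 ± 0.27 on the log2 scale. Il1rapl1, which binds Ncs1 protein, fell by 1.42 ± 0.33, 1.35 ± 0.29 and 0.96 ± 0.29. Syt1 fell by 0.66 ± 0.16, 0.88 ± 0.14 and 1.12 ± 0.14. Calb2 was higher in PVT (745 ± 190.3 CPM, log2 3.32 ± 0.72) and IMD (672 ± 176 CPM, 3.17 ± 0.68) than in CL, PCN and CM, with means of 44.8 to 137 CPM, and was the only 1 of 11 EF-hand genes called in either. In SPA 2 of 11 were called, S100b higher (2.23 ± 1.85 CPM, at most 0.0546 in the intralaminar means) and Pvalb lower (no read in SPA, at most 1.29 CPM). Hpca was the only 1 of 5 other sensors called in IMD (1.75 ± 1.65 CPM) and SPA (0.742 ± 1.45 CPM), beside intralaminar means of at most 0.0707 CPM; PVT had none, with 0 at an unadjusted p under 0.05. No list gene passed for PF. The members' median log2 difference was 0.25 in PVT, -0.07 in IMD, -0.06 in PF and -0.13 in SPA, where the medians of all genes were within 0.08 of 0. These comparisons share their 12 intralaminar libraries, so a value that is off in those appears in all of them.

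The tracer could be compared within CM. Necab1 had 1865, 1610, 1945 and 2122 CPM in the AAV libraries and 1559, 1741 and 1535 CPM in the DiI libraries. Necab3 had 9.88, 17.1, 29.7 and 12.9 CPM with AAV and 53.4, 4.03 and 43.2 CPM with DiI. Hpcal4 had 217, 148, 213 and 202 CPM with AAV and 133, 178 and 152 CPM with DiI. The ranges overlapped for all 3 genes. By edgeR, DESeq2 and voom 0 of 7 members passed and 0 had an unadjusted p under 0.05, and 0.00605% of all genes passed. The log2 difference of Necab3 was -0.95 ± 0.65, a wide error from 3 and 4 libraries. No list gene passed, and the members' median log2 difference was 0.23, beside 0.0 for all genes. Date and tracer cannot be told apart within CM. The single AAV library of AM had 5813 CPM of Vsnl1, above the 1788, 2369, 3311 and 2152 CPM of the AM libraries with DiI.

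Set against the 15 cortex-labelled nuclei, the 7 striatum-labelled nuclei had less Necab3 and more Hpcal4. For this comparison all counts of a nucleus were added up, so that nuclei were the units. Necab3 averaged 22.3 ± 5.71 CPM over the striatum nuclei (17.2 in SPA to 34.0 in PCN) and 115 ± 87.8 CPM over the cortex nuclei (17.4 in AM to 360.4 in LD). Of the 15 cortex nuclei 12 lay above the highest striatum nucleus, and Necab3 fell by 2.37 ± 0.47 on the log2 scale from cortex to striatum (edgeR adjusted p = 0.0012). Hpcal4 averaged 308 ± 124 CPM (154 in PCN to 464 in PVT) against 103 ± 94.3 CPM (4.65 in LGd to 313 in RE). Of the 15 cortex nuclei 11 lay below the lowest striatum nucleus, and the log2 difference was 1.58 ± 0.52 (adjusted p = 0.035). Without IMD, PVT or SPA it was 1.46 (0.083), 1.46 (0.083) and 1.524 (0.053).

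Relative to its mean, Necab1 had the least spread of the 7 genes among the striatum nuclei, at 1930.0 ± 137 CPM, and ranged over the cortex nuclei from 5.11 CPM in AV to 2072 CPM in MD. Of the 15 cortex nuclei 14 lay below the lowest striatum nucleus, but the difference did not pass (log2 1.55 ± 0.66, edgeR adjusted p = 0.099). The remaining 4 members did not pass, and 18.4% of 15440 genes did. Ncald averaged 215 ± 29.3 against 134 ± 94.9 CPM and passed without AM (log2 0.86, 0.026) or IAD (0.85, 0.028), the cortex nuclei highest in it.

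Tracer and class cannot be told apart here, since 27 of the 30 striatum libraries and 1 of the 90 cortex libraries were made with AAV, and sex also differed between the classes. With CM taken from its DiI libraries, Necab3 (log2 -2.23, edgeR adjusted p = 0.0025) and Hpcal4 (1.55, 0.043) still passed. The 2 amplification dates that held both classes gave 8 sums of nucleus and date, with CM from its DiI libraries. Here the cortex class was only the motor nuclei VA, VL and VM, and the striatum class only IMD, PVT and CM. The set of nuclei thus changed along with the date, and the 2 cannot be told apart. The log2 difference was 2.86 for Hpcal4 (edgeR adjusted p = 0.041) and -1.61 for Necab3 (0.059). In those dates Ncald was higher in the striatum class (1.05, 0.042). Vsnl1 was higher there too (0.75, 0.012), against -0.18 (0.60) over all nuclei.

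Among the lists, Kcnip1 and Kcnip4 had no overlap between the classes. The share of all genes without overlap was not counted. Kcnip1, a Kv4 channel subunit, had 28.3 to 79.8 CPM in the striatum nuclei and 0 to 19.3 CPM in the cortex nuclei (log2 4.33 ± 0.88). Kcnip4 had 195 to 266.2 CPM in the striatum nuclei and 267.1 to 643 CPM in the cortex nuclei, and fell by 0.86 ± 0.15. Its classes nearly touched, between CM and RE. Syt1 (1570 ± 471 against 2664 ± 513 CPM) and Il1rapl1 (56.5 ± 24.8 against 129.99 ± 39.8 CPM) were lower in the striatum class, with overlap. Drd2, the dopamine D2 receptor to which Ncs1 protein binds, was higher (log2 1.76 ± 0.43), also with overlap. Hpca (0.437 ± 0.698 against 31.4 ± 37.2 CPM) and Pvalb (0.387 ± 0.444 against 14.3 ± 24.3 CPM) were lower in the striatum class, and Calb2 (308 ± 304 against 46.3 ± 73.4 CPM) was higher, all 3 with overlap. In all 3 of 5 other sensors, 5 of 11 EF-hand genes and 6 of 11 partners passed, with medians of -0.86, 0.18 and 0.18, beside 0.68 for the members and -0.08 for all genes.

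For Necab3 and Hpcal4, the members that differed on average between the classes, the 250 bases before the RefSeq start site (GRCm38.p6) are shown, with matches to 4 searched motifs in capitals. The motifs, searched on both strands, were the GC box GGGCGG, the nuclear receptor element AGGTCA, the Tcf7l2 core ATCAAAG and the cyclic AMP response element TGACGTCA. The Necab3 window lies at chr2:154558855-154559104 on the minus strand, and that of Hpcal4 at chr4:123183254-123183503 on the plus strand.
Necab3: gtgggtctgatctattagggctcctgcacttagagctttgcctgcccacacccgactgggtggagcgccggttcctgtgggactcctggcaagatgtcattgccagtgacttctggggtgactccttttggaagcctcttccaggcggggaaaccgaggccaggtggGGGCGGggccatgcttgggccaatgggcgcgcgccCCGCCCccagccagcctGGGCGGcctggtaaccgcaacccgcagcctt
Hpcal4: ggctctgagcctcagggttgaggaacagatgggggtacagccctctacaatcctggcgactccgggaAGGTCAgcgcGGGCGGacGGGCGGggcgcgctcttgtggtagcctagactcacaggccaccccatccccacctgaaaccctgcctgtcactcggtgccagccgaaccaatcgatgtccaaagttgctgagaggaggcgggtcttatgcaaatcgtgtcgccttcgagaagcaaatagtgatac
Necab3 held 3 GC boxes, and Hpcal4 held 2 GC boxes and 1 AGGTCA. Neither held the other 2 motifs. Of 32536 windows of this length 33.0% held GGGCGG, 14.0% AGGTCA, 3.21% ATCAAAG and 1.56% TGACGTCA, so the GC box is common and a match describes only the letters of the window.

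Across the 22 nucleus means of log2 CPM, Necab3 and Ncald ran opposite to each other (Pearson r = -0.907, Spearman rho = -0.828). AM and IAD had the most Ncald and little Necab3, the striatum nuclei had intermediate Ncald and little Necab3, and LD, VL and VB had little Ncald and much Necab3. Necab1 and Hpcal4 ran together (r = 0.751, rho = 0.691), as did Hpcal4 and Ncald (0.692, 0.700). These were 3 of 21 pairs of members. They describe nucleus means that share animals, dates and tracer, and no test was made.

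**Figure D4:**
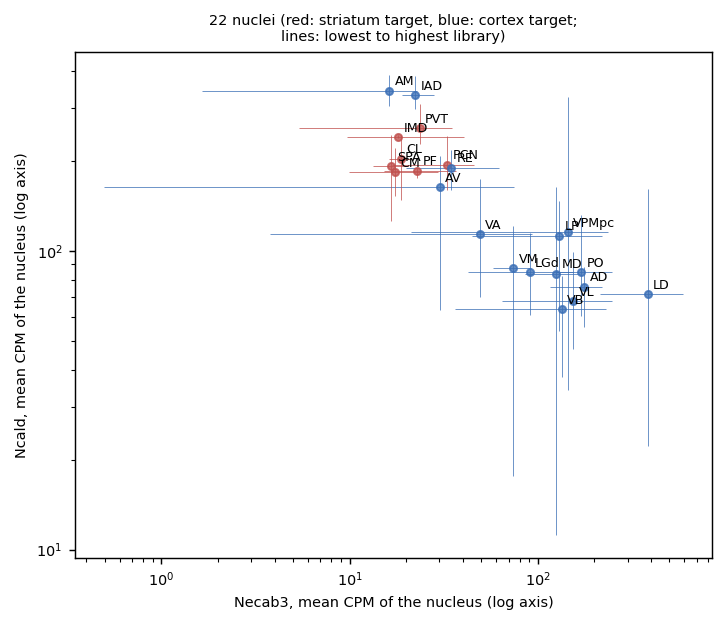
Mean Necab3 against mean Ncald level in the 22 nuclei, both in CPM on log axes, by target class. Ncald runs from 343 CPM in AM, where Necab3 is at 16.3 CPM, to 63.8 CPM in VB, where Necab3 is at 134 CPM.

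The genes most like each member over the same 22 means, of 10561 compared, had higher r for Hpcal4 than for the other members. They were AI504432 (r = 0.966), Cpne6 (0.962), which encodes a copine, a calcium-dependent membrane binder, and the noncoding RNA Rmst (0.937). Ncald was nearest to Itpripl2 (0.917), Prkg1 (0.912), a cyclic GMP-dependent kinase gene, and Lbh (0.872). Necab1 was nearest to Enc1 (0.906), Pnmal1 (0.880) and Zcchc12 (0.877). Necab3 was nearest to Gnal (0.900), the G protein subunit Golf, to the vesicular glutamate transporter gene Slc17a7 (0.876) and to Cdh11 (0.862). Slc17a7 ran from 518 CPM in AD to 1.25 CPM in SPA, and Gnal from 1002 CPM in LD to 250 CPM in SPA. Necab2 was nearest to Tln2 (0.833), Pde4dip (0.832) and Lrrtm3 (0.832), and Ncs1 to Rusc2 (0.858), Gars (0.851) and Pccb (0.845). Vsnl1 had the weakest likeness, to Cep295 (0.777), Zfp182 (0.758) and Ercc6 (0.747).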

How the data were processed

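RNA of hand-picked labelled neurons was extracted, amplified with a kit that does not mark strand and sequenced, per the labels' protocols. The authors deposited whole-number read counts per gene without normalization; the submitters' processing notes list featureCounts 1.52, cutadapt 1.16 and STAR 2.5.3a and the build mm10, while their settings are not given in the sources used here. Every gene in the deposited table had at least 23 counts in total. No molecular identifiers were used, so floors cover counting error only.

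One edgeR 4.0.16 quasi-likelihood fit in R 4.3.3 held all 120 libraries, with TMM factors, filterByExpr (minimum count 10, minimum total 15; 16527 genes) and 1 coefficient per group. Calls are Benjamini-Hochberg adjusted p under 0.05 over all genes, two-sided. The SE given with a log2 difference is its absolute value divided by the square root of the F of that test, since edgeR's test returns no SE. For target classes, counts were summed per nucleus and fitted separately. Alternatives were RLE factors, DESeq2 1.42.0, limma 3.58.1 voom with animal as block, no filter, and fits of the compared groups alone. Amplification date (where the contrast stayed estimable) or replicate number was also added as a term. Each of the 55 libraries in groups of 3 to 5 libraries was left out in turn, and each nucleus in the fit of classes. No library of AV, LP, MD, PO, RE, VA, VL, VM or VPMpc was left out in this way. Unlike the main fit, the fits without a library or with replicate number were given the trended dispersions (estimates of spread) from all 120 libraries. They also kept its filter and scaling factors. A call lost in them therefore cannot be told apart from an effect of that setting. Sex as a term, and leaving out 5 libraries high in oligodendrocyte markers or 8 libraries of older animals or another genotype, were chosen after seeing the data. Tests were checked on simulated data. There the groups shared a common mean apart from the changes set, unlike the real groups, and the outcome is not given here.

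Members and lists were chosen with earlier results of these data known. All members are named; of the lists (8 other neuronal calcium sensors, 14 EF-hand genes, 13 reported partners; 5, 11 and 11 tested) the called genes with the 2 largest changes are the ones to name, and others are named after their values were seen. The genes most like a member are the 3 with the highest Pearson r among genes of at least 10 CPM in a nucleus, prior count 2, without Gm and Rik models. Same-numbered AM and RE libraries shared an animal in 4 of 4 pairs. Of the 68 same-numbered pairs checked 16 shared an animal. Figures used matplotlib 3.10.9 under Python 3.11.15.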

Additional observations from a re-analysis of the deposited data

Results flagged for a closer look

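In 15 of the 140 sets of 4 to 10 libraries (1 member gene in 1 group), the highest or lowest library stood apart from the rest by Dixon's criterion at 95%; chance gives about 1 in 20, here 7. Necab1 had 4 of them. It was 35.1 CPM in AD library 2 (the others 0.630 to 2.57), 22.5 CPM in AV library 3 (0 to 7.57), 1458 CPM in RE library 1 (925 to 1172) and 122 CPM in VB library 1 (0.173 to 0.400). The first 2 and the last are high libraries in nuclei that otherwise had hardly any Necab1.

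Necab2 was 255.2 CPM in VA library 3 (the others 31.0 to 137), the library with 3777 CPM of oligodendrocyte markers, and 101 CPM in VL library 2 (47.7 to 59.1). Necab3 was lowest in AM library 3 at 1.64 CPM (19.6 to 22.8). It was high in IMD library 4 at 40.4 CPM (9.72 to 11.6), in PO library 3 at 248 CPM (125 to 174) and in RE library 6 at 62.1 CPM (19.9 to 38.1).

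Ncald was high in PO library 4 at 132 CPM (60.7 to 89.4) and in VPMpc library 4 at 328 CPM (34.3 to 138). Vsnl1 was high in LP library 1 at 6199 CPM (2972 to 3986), a library with 858 CPM of oligodendrocyte markers. Ncs1 was high in PO library 2 at 161 CPM (57.4 to 101) and in VM library 1 at 228 CPM (133 to 168). Causes were not tested.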

How the results depend on the processing

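Of 170 alternative counts of members called, 27 moved by over 1.5 times. Over left-out libraries the counts ranged from 1 to 2 (PO against VB and AD against AV), 2 to 4 (LD against AV) and 0 to 1 (PVT). Over left-out nuclei they ranged from 1 to 3 (striatum against cortex). Comparisons among VA, VL and VM had no library left out in turn. With limma voom 1 member was called in PO against VB, VM against VL, AD against LD and RE against IAD, 2 in AM against RE and PVT, and 3 in IMD and SPA. In fits of the compared groups alone 0 were called in PO against VB, 1 in VA against VL and AD against LD, 2 in LD against AV, RE against IAD and PVT, and 3 in AM against RE, IMD and SPA. DESeq2 called 2 in AD against AV and in IMD. With amplification date as a term 1 was called in VA against VL and 2 in LD against AV, and with sex 1 in VM against VL and in VA against VL. Without the libraries high in oligodendrocyte markers 0 were called in PO against VB and 1 in VA against VL; without older animals and another genotype 1 in VA against VL and 2 in LD against AV. The cause was not tested in these cases.

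The difference in Vsnl1 between the classes was reversed within dates that hold both (0.75 against -0.18). In those dates the cortex class was only VA, VL and VM, and the cause was not tested. With replicate number as a block, 0 calls changed among the 39 member results that were called under some setting. Same-numbered libraries shared an animal in 16 of 68 pairs, so this block is not a pairing by animal. Deviations of same-numbered libraries correlated at -0.0819 to 0.0748. A change from TMM to RLE factors moved the median of all genes by at most 0.06. Of 126 results for a member in a comparison, 83 were called under no setting, and 20 of those changed sign. Low levels rest on few reads, such as 2 counts for Necab1 in a VB library.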
